A study of Mus musculus with 16 samples.

Results

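Granulocytes and monocytes arise from myeloid progenitors of the bone marrow, and a set of 36 genes that mark this lineage was followed here across 16 arrays. The set held genes of progenitors, granules and monocytes, and was read from the rows of the array table that carry 1 gene symbol. All 36 genes were found, each with 1 such row, among 19937 genes with a row of their own. They comprised 6 primary granule and progenitor genes, 6 transcription factors, 4 cytokine receptors, 8 later granule and neutrophil genes, 4 lysozymes and other enzymes, and 8 surface receptors and monocyte genes.

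RNA was taken from sorted marrow of C57BL/6J animals. LSK cells (Lin-Sca1+c-Kit+) contain the haematopoietic stem cells and early multipotent progenitors, whereas MP cells (Lin-Sca1-c-Kit+) are the myeloid progenitors. Both cell types were taken from WT mice and from Parp-2-/- mice, which lack a poly(ADP-ribose) polymerase that takes part in the response to DNA breaks, with or without 5 Gy of gamma radiation given 2.5 hours earlier. Each of the 8 groups had 2 pools, and each pool held cells of at least 3 mice, so differences between single mice cannot be seen. MP cells are a mixture of erythroid, megakaryocytic, granulocytic and monocytic progenitors, and in such a population fewer cells of a type and less RNA per cell cannot be told apart. Which lineage antibodies the sort used is not stated in the labels.

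In the granulocytic and monocytic lineage, the transcription factors PU.1 (encoded by Spi1) and C/EBP alpha (Cebpa) open the programme, after which Gfi1 and Cebpe favour the granulocytic and Irf8 the monocytic branch. Progenitors at the promyelocyte stage make the enzymes of the primary granules, among them myeloperoxidase and the serine proteases, while the contents of secondary and tertiary granules such as lactoferrin and collagenase are made later. Growth factor receptors for M-CSF, GM-CSF and G-CSF carry the survival and differentiation signals.

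Values are log2 intensities, and differences are in log2 units with their standard error from 1 fit over all 16 arrays. A gene was called different when its p-value from limma, adjusted over all 22961 rows tested, was under 0.05. The array medians lay between 4.74 and 4.92, and a value under its array's median is not shown to be above background. Of the 36 genes, 22 were never under it, 12 were on some arrays, and 2, Ltf and Mmp8, were on every array. Levels of different genes come from different probes and are not compared with each other.

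Marker genes were read against the labels of the sort. Of 11 measured markers of stem cells and multipotent progenitors, 9 were called higher in LSK than in MP cells (21.4% of all rows), 1 of them, Fgd5, under the array median on every LSK array, and 1 was lower (17.9%). Hlf, which encodes a transcription factor of stem cells, and Flt3, a receptor gene of multipotent progenitors, differed by 2.42 ± 0.11 and 1.97 ± 0.12, averaged over the 4 states of genotype and irradiation (adjusted p from limma 2.75e-07 and 1.6e-06). The sort gene Kit, whose product was gated as positive in both populations, was higher in LSK cells by 0.24. Sca1 is encoded by Ly6a, which has no row with 1 symbol, so this gate was not checked. Parp2 was lower in Parp-2-/- than in WT MP cells by 1.44 on the log2 scale (SE 0.18, adjusted p = 0.0252), over 4 arrays each. In LSK cells it did not overlap between the genotypes either, but was not called (-1.40 ± 0.26 without and -1.44 ± 0.26 with irradiation, adjusted p = 0.107 and 0.101).

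Of the 6 primary granule and progenitor genes, all lower in LSK cells, 5 are shown first with the stretch before their start sites, since each holds 1 of the 2 motifs searched there. Nkg7, the other gene, held neither in its 250 bases and is not printed. The sequences are the 250 bases upstream of the transcription start in RefSeq, build GRCm38.p6, written 5′ to 3′ on the gene's strand, at chr19:11640852-11641101 (minus) for Ms4a3, chr10:79886062-79886311 (plus) for Elane, chr10:79879417-79879666 (plus) for Prtn3, chr14:56102575-56102824 (minus) for Ctsg and chr11:87793534-87793783 (plus) for Mpo. Capitals mark the letters GAGGAA, a core of PU.1 sites, or, in Ms4a3, a match to the C/EBP half-sites TTNNGNAA.
Ms4a3: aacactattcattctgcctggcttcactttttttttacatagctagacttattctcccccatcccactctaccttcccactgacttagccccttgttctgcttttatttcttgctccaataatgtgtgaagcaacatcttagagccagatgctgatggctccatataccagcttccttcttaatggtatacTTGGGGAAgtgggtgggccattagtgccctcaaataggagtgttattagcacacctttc
Elane: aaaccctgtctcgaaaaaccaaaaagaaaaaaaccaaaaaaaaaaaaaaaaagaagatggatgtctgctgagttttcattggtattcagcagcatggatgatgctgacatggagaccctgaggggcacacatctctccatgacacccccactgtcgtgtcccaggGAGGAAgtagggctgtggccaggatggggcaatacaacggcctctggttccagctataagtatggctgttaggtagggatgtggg
Prtn3: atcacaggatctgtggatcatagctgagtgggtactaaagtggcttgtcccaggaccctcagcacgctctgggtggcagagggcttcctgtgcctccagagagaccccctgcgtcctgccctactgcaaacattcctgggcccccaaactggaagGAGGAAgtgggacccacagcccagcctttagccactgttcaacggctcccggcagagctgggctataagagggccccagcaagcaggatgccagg
Ctsg: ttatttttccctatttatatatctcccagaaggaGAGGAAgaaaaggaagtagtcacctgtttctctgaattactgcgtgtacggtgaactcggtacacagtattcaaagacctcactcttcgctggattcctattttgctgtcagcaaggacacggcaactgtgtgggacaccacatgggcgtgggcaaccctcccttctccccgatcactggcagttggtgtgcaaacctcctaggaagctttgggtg
Mpo: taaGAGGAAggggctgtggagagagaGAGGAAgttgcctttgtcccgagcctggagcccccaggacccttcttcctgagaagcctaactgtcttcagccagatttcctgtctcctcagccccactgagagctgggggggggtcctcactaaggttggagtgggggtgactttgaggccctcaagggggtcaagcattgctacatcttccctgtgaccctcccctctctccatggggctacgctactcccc

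Counted from the first base of the match, GAGGAA began 85 bases before the start of Elane, 95 before that of Prtn3, 216 before that of Ctsg, and 247 and 224 before that of Mpo. The match to TTNNGNAA in Ms4a3 began 59 bases before the start. RefSeq promoters of 300 bases, from 250 before to 50 after the start, were listed for 30 of the 36 genes, with 33 promoters in all. On either strand, GAGGAA was present in 18 of the 33 (54.5%), against 28.3% of all 32851 promoters in the table. TTNNGNAA was present in 17 of the 33 (51.5%), against 40.7% of all. None of these 5 stretches of 250 bases held both motifs: Ms4a3 held only the match to TTNNGNAA, and Elane, Prtn3, Ctsg and Mpo held only GAGGAA. A match describes the letters alone and is not a measured binding site.

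**Figure D1:**
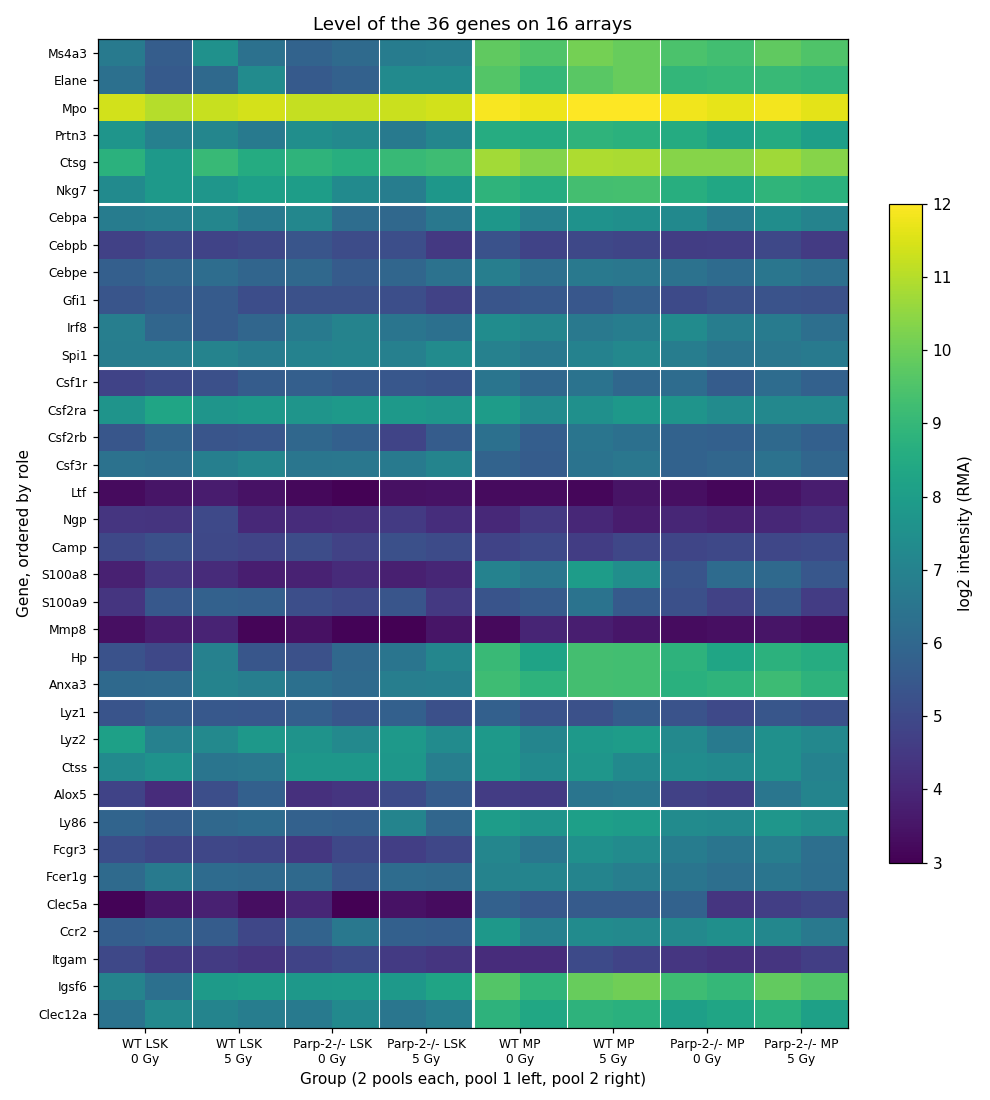
Log2 intensity of the 36 genes (rows, ordered by role) on 16 arrays (columns, grouped by cell type, genotype and dose, pool 1 left and pool 2 right), with colour from 3 to 12 on a log2 scale. Colours are to be read along a row: Ms4a3, Elane, Hp and Anxa3 turn brighter in the 8 MP columns on the right, whereas Ltf and Mmp8 stay dark on all 16 arrays.

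The first comparison asked how the lineage genes differ between LSK and MP cells. In unirradiated WT mice 16 of the 36 genes were called lower in the LSK population and 0 higher, where 3.93% of all tested rows were called lower and 1.29% higher. The count of genes lower was 11 in unirradiated Parp-2-/- mice (2.52% of all rows), 14 in irradiated WT mice (1.87%) and 13 in irradiated Parp-2-/- mice (3.19%), with 0 higher in each (0.827%, 0.575% and 0.88% of all rows). Averaged over the 4 states, 22 genes were lower (17.9% of all rows) and 1, Csf3r, was higher (21.4%). The median difference of the 36 genes was -0.57 in that average, while the median over all rows was 0.12. For 15 of the 36 genes every one of the 8 LSK arrays lay under every one of the 8 MP arrays, a pattern found in 3.94% of all rows.

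All 6 primary granule and progenitor genes were lower in LSK cells, in unirradiated WT mice and in the average of the 4 states. Ms4a3, a membrane protein of granulocyte and monocyte progenitors, had log2 levels of 6.69 and 5.65 in the pools of unirradiated WT LSK cells and of 9.82 and 9.54 in WT MP cells. The groups stood far apart, and the difference of -3.51 ± 0.36 corresponded to 11.4-fold (adjusted p from limma 0.000844). Over all states, Ms4a3 ranged from 5.65 to 7.54 in LSK cells with a median of 6.52, and from 9.28 to 10.11 in MP cells with a median of 9.68. Neutrophil elastase, encoded by Elane, was at 6.33 and 5.55 in unirradiated WT LSK and at 9.60 and 9.01 in WT MP cells, a difference of -3.37 ± 0.35 (adjusted p = 0.000844). Averaged over the states it was -2.87 ± 0.17, and all 8 LSK arrays lay under the 8 MP arrays.

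Elane and its neighbour Prtn3, which encodes proteinase 3, lie next to each other on chromosome 10 with 0 protein-coding genes between them in RefSeq GRCm38.p6, and both were lower in LSK cells. Prtn3 ranged from 6.70 to 7.70 in LSK and from 8.09 to 8.87 in MP cells, a mean difference of -1.38 ± 0.13 (adjusted p from limma 3.04e-05). Cathepsin G, the serine protease encoded by Ctsg, ranged from 7.88 to 9.20 in LSK and from 10.35 to 10.90 in MP cells, and differed by -1.84 ± 0.13. Mpo, the myeloperoxidase gene, had the smallest difference of the 6, -0.56 ± 0.08, yet its LSK arrays (10.99 to 11.41) did not reach its lowest MP array (11.63). Nkg7, which encodes a membrane protein of granules, differed by -1.24 ± 0.15. In unirradiated WT cells the call of Nkg7 was kept in 4 of the 16 fits that left out 1 array and lost with the replicate block, and that of Mpo was kept in 9. Both, and Prtn3 and Ctsg, were not called there with only the arrays compared in the fit. Nkg7, Mpo and Prtn3 also lost the call there with further quantile normalization and with all rows tested. In unirradiated Parp-2-/- cells the calls among these 6 were Ms4a3, Elane and Ctsg.

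Among the transcription factors none of the 6 passed the test in any single state, and 3 were lower in LSK cells in the average of the 4 states. These were Cebpa, the founding C/EBP factor of the granulocytic lineage (-0.59 ± 0.17, adjusted p from limma 0.0187), Cebpe, which acts in later granulocytes (-0.49 ± 0.12, adjusted p = 0.0084), and Irf8, a factor of monocytes and dendritic cells (-0.52 ± 0.14, adjusted p = 0.0155). Their LSK and MP arrays overlapped, and Cebpa and Irf8 were no longer called after a further quantile normalization. Spi1, the PU.1 gene, ranged from 6.80 to 7.33 in LSK and from 6.47 to 7.18 in MP cells, a difference of 0.18 ± 0.09 with an interval of -0.02 to 0.39. Gfi1, a repressor in granulocytic progenitors, differed by -0.08 ± 0.10, and Cebpb, which serves emergency granulopoiesis, by 0.10 ± 0.12.

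The cytokine receptors went in different directions. Csf1r, the M-CSF receptor of the monocytic lineage, was at 4.82 and 5.03 in unirradiated WT LSK and at 6.51 and 6.02 in unirradiated WT MP cells. The pools did not overlap, and Csf1r differed by -1.34 ± 0.25 there (adjusted p from limma 0.0121) and by -0.75 ± 0.12 over the 4 states. Csf3r, the G-CSF receptor, was the only gene of the 36 called higher in LSK cells. It ranged from 6.27 to 7.14 in LSK and from 5.61 to 6.57 in MP cells, ranges that overlap, but within each of the 4 states the LSK pools lay above the MP pools. Its mean difference was 0.61 ± 0.09 (adjusted p = 0.000516). Csf2rb, the shared beta chain for GM-CSF, was lower by 0.49 on the log2 scale (-0.49 ± 0.14), a value that is uncertain because its near-identical paralogue Csf2rb2 may share probes. Csf2ra, the GM-CSF receptor alpha chain, was not called, at 0.32 ± 0.12 (adjusted p = 0.0513).

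Of the 8 later granule and neutrophil genes 3 were lower in LSK cells in each of the 4 states, namely S100a8, Hp and Anxa3. In irradiated Parp-2-/- cells the call of Hp was lost with only the arrays compared, with further quantile normalization and with all rows tested. In irradiated WT cells the call of Hp was also lost with only the arrays compared. That of S100a8 was lost with only the arrays compared in Parp-2-/- cells, without and with irradiation. Hp, which encodes haptoglobin, a protein of granules and plasma that binds haemoglobin, was at 5.25 and 4.94 in unirradiated WT LSK and at 9.08 and 8.23 in WT MP cells. The difference of -3.56 ± 0.45 had an adjusted p of 0.00227 from limma. The annexin gene Anxa3 was at 6.06 and 6.10 against 9.21 and 8.80 in the same groups, with pools close to each other. Its mean difference over the states, -2.49 ± 0.09, had the smallest adjusted p of the 36 genes, 2.66e-08.

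S100a8 encodes a subunit of calprotectin, a calcium-binding protein abundant in neutrophils and monocytes. On every LSK array it lay under the array median, between 3.76 and 4.42, so that only a bound can be given, and it was at least 3.07-fold higher in MP cells, where it ranged from 5.35 to 7.97. Its partner subunit is encoded by S100a9, the adjacent gene on chromosome 3 with 0 protein-coding genes between them. S100a9 ranged from 4.38 to 5.78 in LSK and from 4.59 to 6.43 in MP cells, so the cell types overlapped, and its difference of -0.20 ± 0.20 was not called. Camp, the gene of a cathelicidin of secondary granules, was not called (0.13 ± 0.08). Ngp, another gene of these granules, was under the array median on 15 of 16 arrays, and lactoferrin (Ltf) and neutrophil collagenase (Mmp8) on all 16, so no difference is given for these 3.

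The surface and monocyte genes were lower in LSK cells for 7 of 8 members in the average of the states, all but Itgam. Fcgr3, a low-affinity receptor for IgG, ranged from 4.45 to 5.11 in LSK and from 6.29 to 7.53 in MP cells, and differed by -2.03 ± 0.12 (adjusted p from limma 1.6e-06). Fcgr3 was under the array median on 4 arrays, all of LSK cells, so this size is uncertain. Its signalling partner Fcer1g, the common gamma chain of Fc receptors, differed less, by -0.59 ± 0.11, with overlapping arrays. The immunoglobulin superfamily member Igsf6 was at 7.01 and 6.33 in unirradiated WT LSK and at 9.60 and 8.88 in WT MP cells, a difference of -2.56 ± 0.26 (adjusted p = 0.000844).

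Ly86, which encodes MD-1, the partner of the Toll-like receptor homologue RP105, differed by -1.65 ± 0.14, and the inhibitory lectin receptor Clec12a by -1.62 ± 0.15. The chemokine receptor Ccr2, which directs monocytes out of the marrow, differed by -1.49 ± 0.16. Clec5a, an activating lectin receptor of myeloid cells, lay under the array median on every LSK array, at 2.96 to 3.98, and was at least 1.32-fold higher in MP cells over the 4 states. Itgam, the integrin chain CD11b that is commonly part of lineage antibody mixtures, ranged from 4.39 to 5.03 in LSK and from 4.15 to 5.03 in MP cells, was under the array median on 12 of the 16, and was not called.

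Among the lysozymes and enzymes only Alox5, the 5-lipoxygenase that starts leukotriene synthesis, differed in the average of the states (-0.74 ± 0.13, adjusted p from limma 0.00167), and of single states only in irradiated Parp-2-/- cells (-1.45 ± 0.27, adjusted p = 0.0133). In unirradiated cells Alox5 was under the array median in both WT groups and in Parp-2-/- LSK cells. Lyz2, the lysozyme M gene, was at 8.11 and 6.96 in unirradiated WT LSK and at 7.86 and 7.11 in WT MP cells, and overlapped. Lyz1 and Lyz2 lie next to each other and are near-identical, so that probes may be shared and the values of both are uncertain. The cysteine protease gene Ctss was not called either (-0.15 ± 0.14).

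**Figure D2:**
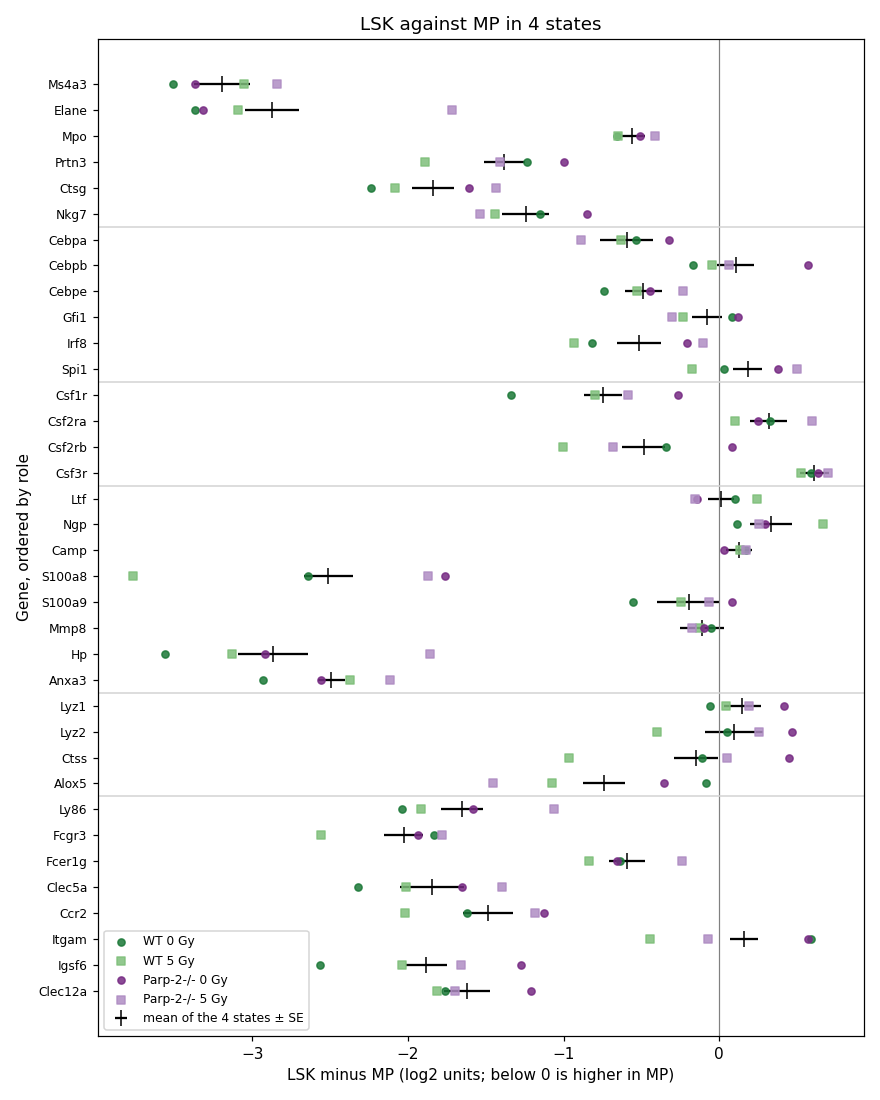
Difference between LSK and MP cells in log2 units for each gene (rows, by role), with 1 point for each of the 4 states of genotype and dose, and a black mark with a bar for their mean ± SE. Points left of 0 are higher in MP cells: the 6 primary granule genes lie left in all 4 states, Csf3r lies right in all 4, and the points of Spi1, Lyz2 and Ctss lie on both sides of 0.

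A wider list of 59 genes of the same lineages, of which 54 were measured, was read in the same way. In the average of the 4 states 22 were lower in LSK cells (17.9% of all rows) and 11 higher (21.4%), and the median of the 54 was -0.19. Among those lower were F13a1, the factor XIII chain of monocytes (-2.26 ± 0.18), Hdc, histidine decarboxylase (-2.26 ± 0.18), and Prss57, a serine protease of primary granules (-1.15 ± 0.12), with adjusted p-values from limma of 9.74e-06, 9.68e-06 and 4.63e-05. Higher were Egr1 (1.01 ± 0.26), an early response transcription factor, and Nab2 (0.45 ± 0.09), a corepressor of EGR factors. Of 7 measured markers of mature neutrophils 2, Ly6g and Mmp9, lay under the array median on all 16 arrays, and of 10 macrophage markers 3 did, Adgre1, Mrc1 and Timd4. The mean level of the neutrophil markers was 4.72 to 4.93 on LSK and 4.58 to 4.85 on MP arrays, and that of the macrophage markers 4.53 to 4.79 and 4.55 to 4.77. The neutrophil markers include Csf3r, which also belongs to the lineage set and was called higher in LSK cells. Of 9 dendritic markers 5 were called higher in LSK cells (21.4% of all rows) and 0 lower (17.9%). Their mean level was 5.04 to 5.55 on LSK arrays, while 4 were under the array median on every LSK array and 6 on every MP array. The part of such cells in the lineage gene values was not tested.

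The MP fraction also differed from LSK cells in the RNA levels of erythroid markers. Of 11 measured erythroid markers 9 were lower in LSK cells (17.9% of all rows) and 1 higher (21.4%), with a median difference of -1.70. Their mean level ran from 4.91 to 5.31 on LSK arrays and from 6.12 to 7.64 on MP arrays. Cldn13 and Rhag were under the array median on every LSK array. The part of the mixture of progenitors in the lineage gene values was not tested.

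The second comparison asked whether loss of Parp-2 changes the lineage genes in MP cells. None of the 36 genes passed the test, in unirradiated cells, in irradiated cells or in the mean of both, where limma called 0.00436%, 0.00871% and 0.0131% of all rows in either direction. Without adjustment, 2, 7 and 10 of the 36 genes had a p under 0.05, as did 1.08%, 1.79% and 1.92% of all rows. The differences leaned 1 way: 32 of 36 were below 0 in unirradiated cells, 32 in irradiated cells and 33 in the mean, where 51.7% of all rows were below 0. The median of the 36 was -0.23, -0.34 and -0.29 in these comparisons, against medians over all rows of -0.01, 0.00 and -0.01. These tallies include genes under the array median in both genotypes, namely Ltf, Ngp and Mmp8, and Itgam in unirradiated cells, whose signs carry no measured level. Without them 29 of 32, 31 of 33 and 31 of 33 were below 0. The same sign in both irradiation states was seen below 0 for 30 genes (27.5% of all rows) and above 0 for 2, Camp and Alox5 (25.3%).

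In unirradiated cells the count depended on 1 pool. In unirradiated WT MP cells, pool 1 was above pool 2 for 30 of the 36 genes, with a median gap of 0.38. Without this pool 1, 23 of 36 differences were below 0 and the median was -0.03. Pool 1 was also above pool 2 for 28 genes in irradiated Parp-2-/-, 25 in unirradiated Parp-2-/- and 22 in irradiated WT MP cells. The median gaps there were 0.29, 0.16 and 0.06. In the LSK groups pool 1 was above pool 2 for 15 to 22 of the 36 genes. In irradiated cells, leaving out any 1 of the 4 pools kept 30 to 32 genes below 0, and the median ran from -0.50 to -0.15.

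S100a8 had the largest difference between genotypes. Its log2 levels were 6.97 and 6.54 in unirradiated WT MP cells and 5.35 and 6.15 in unirradiated Parp-2-/- MP cells. After irradiation they were 7.97 and 7.44 in WT and 6.07 and 5.43 in Parp-2-/- MP cells. All 4 Parp-2-/- arrays lay under all 4 WT arrays, and the mean difference was -1.48 ± 0.22, or 2.79-fold, but the adjusted p from limma was 0.115. The difference was -1.01 ± 0.31 without and -1.95 ± 0.31 with irradiation (adjusted p = 1 and 0.227), and the interaction of genotype with irradiation in MP cells was called for 0 of the 36 genes (0% of all rows), with 1 gene and 0.867% of all rows at an unadjusted p under 0.05. In LSK cells S100a8 was under the array median in both genotypes.

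The adjacent gene S100a9 was at 5.35 and 5.60 in unirradiated WT and at 5.18 and 4.77 in Parp-2-/- MP cells, then at 6.43 and 5.55 and at 5.42 and 4.59 after irradiation. The Parp-2-/- values of 4.77 and 4.59 were under their array medians, so the size of the S100a9 difference is uncertain. The genotypes did not overlap within either state, and the mean difference was -0.74 ± 0.29 (adjusted p from limma 1). Fcer1g was at 7.03 and 7.07 in unirradiated WT and at 6.48 and 6.30 in Parp-2-/- MP cells, and at 7.06 and 6.85 against 6.51 and 6.26 after irradiation. Its 4 Parp-2-/- arrays lay under the 4 WT arrays, with a mean difference of -0.62 ± 0.16 (adjusted p = 1).

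Gfi1 was the third gene whose 4 Parp-2-/- MP arrays, 5.01 to 5.30, lay under all 4 WT arrays, 5.37 to 5.73, with a mean difference of -0.31 ± 0.14. This full separation was found for 3 of the 36 genes and for 1.15% of all rows. Within both irradiation states taken singly, Parp-2-/- pools lay under WT pools for 7 genes, which besides these 3 and S100a9 were Ms4a3, Ly86 and Clec12a, against 3.07% of all rows. In irradiated cells alone this held for 27 of the 36 genes, against 18.3% of all rows, and in unirradiated cells for 10, against 16%.

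By role, all 6 primary granule genes and all 6 transcription factors had mean differences below 0, with none called. The medians were -0.34 and -0.28. Elane had -0.55 ± 0.25 and Spi1 -0.30 ± 0.13. The 4 cytokine receptors were below 0 as well, from -0.35 for Csf2rb to -0.07 for Csf3r. So were all 8 surface and monocyte genes, with a median of -0.42, among them Fcgr3 at -0.52 ± 0.18 and Clec5a at -0.67 ± 0.29. The size for Clec5a is uncertain. Its unirradiated Parp-2-/- pools were at 5.85, above both WT pools (5.78 and 5.49), and at 4.40. That second pool, and irradiated Parp-2-/- pool 1 at 4.67, were under the array median. Above 0 were Camp (0.10 ± 0.12), Alox5 (0.19 ± 0.19) and Ltf, which was not above background. Of the transcription factors, Cebpb was under the array median in unirradiated Parp-2-/- MP cells. Of the surface and monocyte genes, Itgam was under it in both unirradiated MP groups and in irradiated Parp-2-/- MP cells.

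The wider lineage list was below 0 in 46 of its 54 measured genes, with a median of -0.19 and none called. The 11 erythroid markers were above 0 in 11 of 11, with a median of 0.38 and none called, and their mean level ran from 6.12 to 7.56 on WT and from 6.67 to 7.64 on Parp-2-/- MP arrays. No erythroid marker was under the array median on every MP array. Of 7 mast cell and basophil markers 6 were below 0, with a median of -0.21 and none called. Their mean level ran from 4.89 to 5.47 on WT and from 4.76 to 4.93 on Parp-2-/- MP arrays, and Fcer1a and Mcpt1 were under the array median on every MP array. The part of erythroid and mast cell progenitors in the lineage gene differences was not tested. On chromosome 14, Cebpe and Ctsg lie 74 and 134 protein-coding genes from Parp2, the targeted gene.

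**Figure D3:**
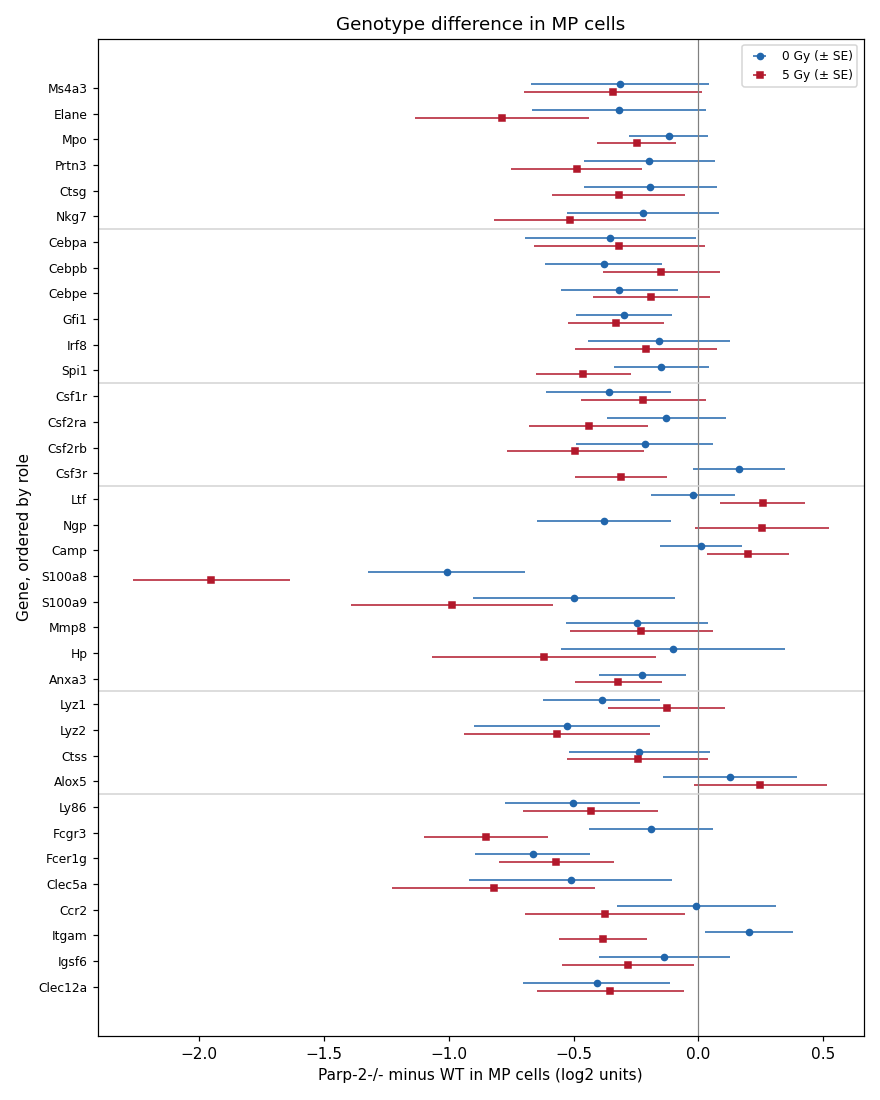
Difference between Parp-2-/- and WT MP cells in log2 units for each gene (rows, by role), as blue circles for 0 Gy and red squares for 5 Gy, each with a bar of ± SE from 2 pools a group. Most points lie left of 0, S100a8 is farthest left at -1.01 and -1.95, and none of the 36 genes passed the adjusted test.

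In LSK cells the genotype gave 0 calls among the 36 genes, without and with irradiation, where limma called 0% and 0.0174% of all rows, and 3 and 2 genes had an unadjusted p under 0.05, as did 9.31% and 9.55% of all rows. The signs were mixed, with 16 and 21 of 36 below 0. Without irradiation Igsf6 had the largest difference, at 7.79 and 7.87 in unirradiated Parp-2-/- LSK against 7.01 and 6.33 in WT LSK cells. It did not overlap, but 1.16 ± 0.26 missed the threshold (adjusted p = 0.176), and after irradiation the difference was 0.09 ± 0.26. None of the 36 genes passed a test of the interaction between genotype and cell type, where limma called 0.00436% of all rows in each irradiation state. Without and with irradiation 3 and 6 genes had an unadjusted p under 0.05 there, as did 3.88% and 5.16% of all rows. The smallest was that of S100a8 in irradiated cells (adjusted p = 0.692), with no size given since it was under the array median in LSK cells.

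The third comparison asked what 5 Gy does to these genes within 2.5 hours. Few passed the test in a single group. In WT MP cells 1 gene, Alox5, was higher (0.571% of all rows were called higher), and in Parp-2-/- MP cells it was again 1, Alox5 (0.505%). In WT LSK cells 2 genes were higher, Anxa3 and Igsf6 (1.18%), and in Parp-2-/- LSK cells 1, Elane (0.727%). None was called lower in these 4 groups, where limma called 0.1%, 0.0827%, 0.623% and 0.74% of all rows lower, and 6, 2, 8 and 8 genes had an unadjusted p under 0.05 in either direction, as did 6.24%, 5.75%, 14.7% and 11.8% of all rows.

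Alox5 was at 4.61 and 4.51 in unirradiated and at 6.49 and 6.59 in irradiated WT MP cells. In Parp-2-/- MP cells it was at 4.75 and 4.62 without and at 6.53 and 7.04 with irradiation. The irradiated pools lay far above the unirradiated ones in both genotypes, by 1.98 ± 0.27 and 2.10 ± 0.27 (adjusted p from limma 0.00378 and 0.00261). Since unirradiated WT MP cells were under the array median, the first is at least 3.30-fold. Each call was lost without 1 of the pools concerned: in WT MP cells without pool 2 of either dose, in Parp-2-/- MP cells without irradiated pool 2.

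In LSK cells Alox5 was at 4.81 and 4.14 without and at 5.17 and 5.76 with irradiation in WT, and at 4.26 and 4.40 against 5.07 and 5.61 in Parp-2-/- mice. The pools did not overlap in either genotype, but the differences missed the threshold (adjusted p from limma 0.0897 and 0.0973). Both unirradiated LSK groups were under the array median, so the differences are given as at least 1.48-fold in WT and at least 1.39-fold in Parp-2-/- LSK cells. The interaction of cell type with irradiation, averaged over the genotypes, was called for 0 of the 36 genes (0% of all rows), and 6 genes had an unadjusted p under 0.05 (6.55% of all rows). For Alox5 its adjusted p was 0.314, and no size is given because 3 of the 4 unirradiated groups were under the array median.

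Anxa3 rose in WT LSK cells from 6.06 and 6.10 to 7.02 and 6.84, by 0.85 ± 0.17 (adjusted p from limma 0.0319). In Parp-2-/- LSK cells it was at 6.33 and 6.12 and then at 6.84 and 6.90, which was not called (0.64 ± 0.17, adjusted p = 0.105). Irradiated LSK pools of both genotypes thus lay above every unirradiated LSK pool, and under every MP pool. Igsf6 in WT LSK cells went from 7.01 and 6.33 to 7.89 and 8.01, by 1.28 ± 0.26 (adjusted p = 0.0319), whereas its Parp-2-/- LSK pools overlapped (0.22 ± 0.26).

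Elane in Parp-2-/- LSK cells went from 5.55 and 5.79 to 7.30 and 7.30, by 1.63 ± 0.35 (adjusted p from limma 0.041). In WT LSK cells it was at 6.33 and 5.55 and then at 6.08 and 7.34, so the doses overlapped and the gain of 0.77 ± 0.35 was not called. The interaction of genotype with irradiation in LSK cells was called for 0 of the 36 genes (0.00871% of all rows), with 2 genes and 9.52% of all rows at an unadjusted p under 0.05. The Elane call was kept in 6 of the 16 fits that left out 1 array, that of Anxa3 in 9 and that of Igsf6 in 11, and Elane was not called with the pool number as a block (0 genes).

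**Figure D4:**
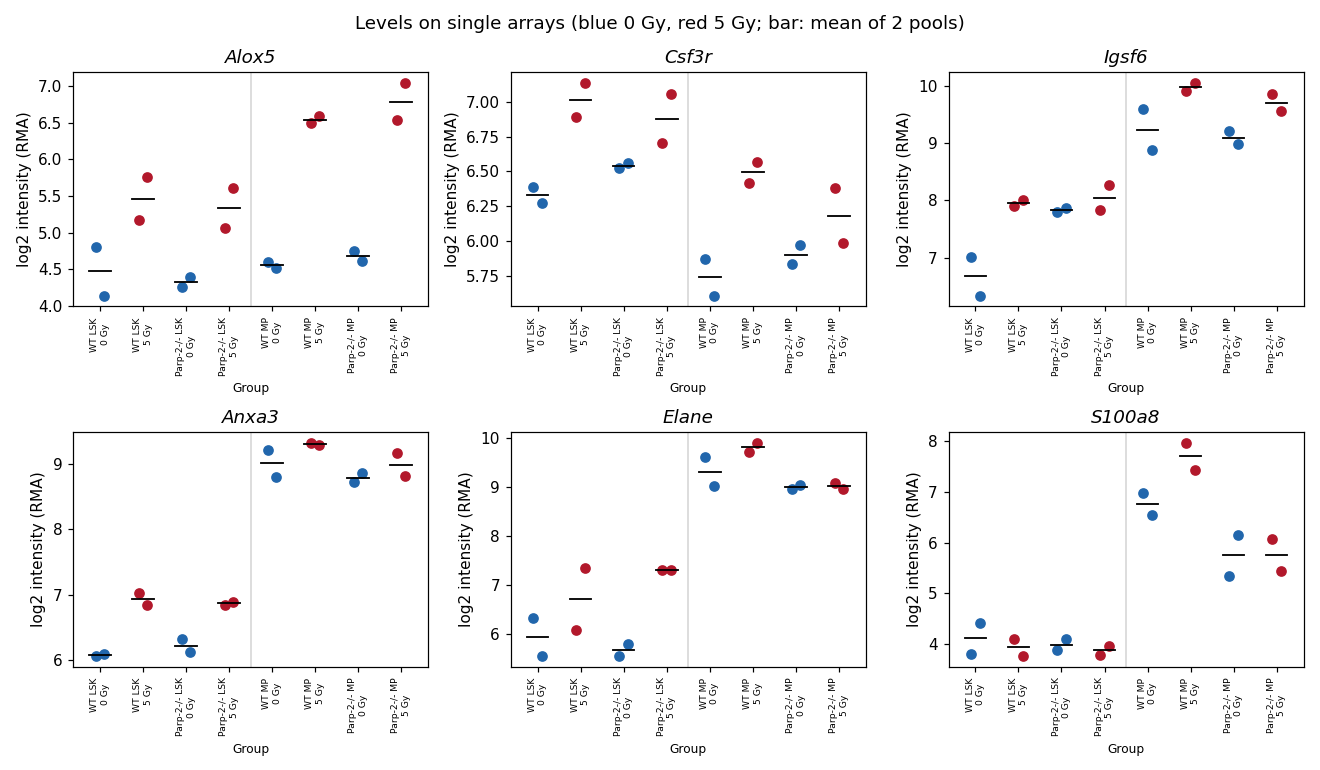
Log2 intensity on single arrays for 6 genes, with unirradiated pools in blue, irradiated pools in red and a bar at the mean of 2 pools; LSK groups stand left and MP groups right of the grey line. Red points lie above blue ones in all 4 pairs of groups for Alox5 and Csf3r, and S100a8 stays near 4 in every LSK group.

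A mean of the 4 radiation differences was added after the values had been seen. By it 5 genes were higher (3.31% of all rows) and 1 lower (2.49%). Alox5 was higher (adjusted p from limma 1.94e-05), by at least 2.32-fold with the 3 unirradiated groups under the array median set at that median. Also higher were Igsf6 by 0.71 ± 0.13 (0.00622), Anxa3 by 0.50 ± 0.09 (0.00453), Csf3r by 0.51 ± 0.09 (0.00506) and Elane by 0.73 ± 0.17 (0.0273). Irf8 was lower, at -0.53 ± 0.14 (adjusted p = 0.0495), a call kept in 3 of the 16 fits without 1 array, while that of Elane was kept in 7.

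For Csf3r the irradiated pools lay above the unirradiated pools in each of the 4 groups, with 0.75 ± 0.18 in WT MP, 0.28 ± 0.18 in Parp-2-/- MP, 0.68 ± 0.18 in WT LSK and 0.34 ± 0.18 in Parp-2-/- LSK cells. Of the 36 genes, Csf3r and Alox5 did so, against 2.09% of all rows. Irf8 was at 7.36 and 7.09 in unirradiated and at 6.65 and 6.80 in irradiated WT MP cells, and at 7.33 and 6.81 against 6.75 and 6.28 in Parp-2-/- MP cells. It did not overlap within either MP group, and its difference was below 0 in all 4 groups. Hp was above 0 in all 4 groups, from 0.12 in Parp-2-/- MP to 1.17 in Parp-2-/- LSK cells, and its mean of 0.75 ± 0.22 was not called (adjusted p from limma 0.0787). The 11 erythroid markers had a mean level of 6.78 to 7.64 on unirradiated and of 6.12 to 7.01 on irradiated MP arrays. In the mean of the 4 groups, which includes LSK cells, 5 of 11 were called lower (2.49% of all rows), with a median of -0.54. Cldn13 and Rhag were under the array median on every LSK array. The part of the erythroid markers in the lineage gene values was not tested. The same sign in all 4 groups was seen above 0 for 12 genes (10.6% of all rows) and below 0 for 3, Irf8, Ctss and Ccr2 (14%).

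Of the other lineage genes, Cybb, the catalytic chain of the phagocyte NADPH oxidase, was higher in irradiated LSK cells of both genotypes, by 2.27 ± 0.48 in WT and by 3.40 ± 0.48 in Parp-2-/- mice (adjusted p from limma 0.0357 and 0.0034). Runx1, a transcription factor of early haematopoiesis, was lower in both (-1.09 ± 0.23 and -1.07 ± 0.23), and so was Serpinb1a, an inhibitor of neutrophil proteases (-1.03 ± 0.19 and -0.98 ± 0.19). Csf1, which encodes the ligand of Csf1r, was higher in irradiated WT MP cells (adjusted p = 0.0128), by at least 1.47-fold since its unirradiated pools were under the array median. These were the calls in single groups among the 54 genes, and the receptor gene Csf1r itself was not called in any of the 4 groups.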

How the data were processed

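RNA from 16 pools was hybridised to Affymetrix Mouse Gene 1.0 ST arrays. The deposited log2 values are RMA intensities, per the submitters' processing notes. These also name affy 2.10, R 2.15 and limma, with no role or order. The log base was read from the values, and the set of arrays normalised together is not given in the sources used here. Values were used as deposited.

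The table held 34760 rows, of which 21640 carried 1 gene symbol, 1321 several and 11799 none. The 22961 rows with a symbol were tested with limma 3.58.1 in R 4.3.3: 8 group means over 16 arrays, eBayes (8 residual and 4.35 prior degrees of freedom), two-sided, with Benjamini-Hochberg adjustment within each comparison and a threshold of 0.05. The pipeline was tested on simulated data. Precision is limited by 2 arrays a group, with a median standard error of 0.207 between a pair of groups.

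All 36 genes matched RefSeq by Entrez identifier and are described from the row with the highest mean; further lineage genes are counted and named only where called. Genes and lists were chosen with earlier results of these data known. P-values measure the spread between pools. Lower bounds set the group under background at its array median. Alternatives were a replicate block, further quantile normalization, only the arrays compared, all rows, rows above the median row, a variance trend, the mean of a gene's rows, and leaving out each array.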

Additional observations from a re-analysis of the deposited data

How the results depend on the processing

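The counts of genes called between LSK and MP cells moved most. With only the arrays compared in the fit they were 7 in unirradiated WT, 7 in unirradiated Parp-2-/-, 9 in irradiated WT and 3 in irradiated Parp-2-/- cells. Radiation calls in WT and in Parp-2-/- LSK cells were then 0 and 0, as they were with all rows tested (0 and 0). A variance trend left 1 call in WT LSK cells. With the replicate block 0 were called in irradiated Parp-2-/- LSK cells, and the block changed no other count by over 1.5 times. Pool numbers were not used to pair the samples in the main fit. Over 28 pairs of groups, deviations of pool 1 from the group mean correlated between -0.17 and 0.23, with 2 over 0.1. The 2 were unirradiated Parp-2-/- LSK with MP cells (0.11) and irradiated Parp-2-/- with unirradiated WT MP cells (0.23). These values cannot exclude that groups shared mice, since pools may be numbered in another order.

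Leaving out 1 array at a time, the LSK against MP counts ran from 9 to 16 in unirradiated WT (lowest without MP pool 1), from 6 to 12 in unirradiated Parp-2-/- (MP pool 2), from 4 to 17 in irradiated WT (MP pool 1), from 4 to 14 in irradiated Parp-2-/- (MP pool 1) and from 23 to 24 in the mean. Radiation counts ran from 0 to 1 in WT MP, 0 to 1 in Parp-2-/- MP, 0 to 2 in WT LSK, 0 to 1 in Parp-2-/- LSK cells and 4 to 8 in the mean of the 4 groups. The genotype count in unirradiated LSK cells ran from 0 to 1, and the counts in the other genotype comparisons and in the interactions were 0 throughout. For the 88 called results of single genes, 1759 of 1991 alternative values kept the call, 232 lost it and 0 changed direction. Signal under the array median limits Ltf, Mmp8 and Ngp on 15 or 16 arrays, Itgam on 12, Clec5a on 10, S100a8 on 8, Alox5 and Cebpb on 7 each, and 6 other genes on 1 to 4.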
